A study of Mus musculus with 4 samples.

Results

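The miRNAs that lie inside the mouse Hox clusters were examined in small RNA libraries from the embryonic forebrain. They were chosen by name and not by a cut on their values, although earlier results of these data were known. The members were mmu-miR-10a-5p, mmu-miR-10b-5p, mmu-miR-196a-5p, mmu-miR-196b-5p and mmu-miR-615-5p (the prefix, for mouse, is left out from here on). All 5 had a row among the 1059 mature miRNAs counted. Of these 5, 4 reached the minimum of 10 counts in at least 2 libraries, as did 274 of the 1059 miRNAs. The tissue was the most rostral part of the telencephalon at E11.5, and 2 libraries of Rx-Cre;Dicer F/F embryos, called Rx-Dicer mutants, were set against 2 of control littermates. The labels name the controls WT, whereas the study's design gives them as Dicer F/F, so that both genotypes carried floxed Dicer alleles and only the mutants carried Rx-Cre. Floxed Dicer was kept on a C57BL/6 background and Rx-Cre on a CD1 background. In this line Cre is driven by the regulatory sequences of Rax (Rx), a gene of the early anterior neural fold, and cells outside that lineage, such as mesenchyme, vessels and blood, keep Dicer. By the study's account, Cre has acted in fewer cells of the neocortex than of the front and base of the telencephalon. The number of embryos in each library is not given in the sources used here, so p-values measure the spread between these libraries only.

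Hox genes encode transcription factors that set position along the body axis of bilaterian animals. Their order within each cluster matches the order of their expression from head to tail, and the telencephalon lies in front of the region where they are active. The miRNAs encoded between them are generally transcribed with their neighbours and are known for activity in the hindbrain, spinal cord, trunk and limbs. miR-10 genes lie beside group 4 Hox genes, and miR-196 genes lie nearer the posterior side of the clusters, beside groups 9 and 10. Like other miRNAs with a canonical hairpin, they are cut out by Drosha and then by Dicer, the enzyme deleted in the mutants.

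The mature sequences (RefSeq, GRCm38.p6, 5 of 5 matched) are shown because they divide the 5 miRNAs into 3 groups by seed, the stretch from base 2 to base 8 that pairs with targets, given in capitals.
miR-10a-5p: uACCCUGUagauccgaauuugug
miR-10b-5p: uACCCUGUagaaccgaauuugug
miR-196a-5p: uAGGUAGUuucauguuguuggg
miR-196b-5p: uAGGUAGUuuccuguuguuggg
miR-615-5p: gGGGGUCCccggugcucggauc
Counted from the 5′ end, miR-10b differs from miR-10a by the single substitution U12A, and miR-196b differs from miR-196a by A12C. Both substitutions lie outside the seed, and no other mature miRNA in the table shared any of the 3 seeds. A read with a sequencing error at base 12 can be assigned to the wrong member of a pair, and how many reads were affected was not measured.

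2 sets of far more abundant miRNAs resemble these sequences, and one of each is shown for comparison.
miR-100-5p: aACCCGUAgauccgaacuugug
let-7a-5p: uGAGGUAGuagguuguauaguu
miR-100 shares a run of 11 bases with miR-10a (GUAGAUCCGAA), shifted by 1 base, and its seed is another one. The miR-196 seed AGGUAGU occurs in let-7a at bases 3 to 9, so the seeds of miR-196 and let-7 overlap but are offset by 1 base.

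The 5 miRNAs come from 6 hairpins, and every hairpin that overlaps a Hox transcript lies on the same strand as that transcript. Mir10a (chr11:96317165-96317274, plus strand) lies between genes, 11043 bases beyond Hoxb5 and 992 bases before Hoxb4. Mir10b (chr2:74726070-74726137, plus strand) lies in an intron of Hoxd4 and of a long transcript of Hoxd3. Mir196a-1 (chr11:96265164-96265265, plus strand) lies between genes, 67716 bases beyond Hoxb13 and 6191 bases before Hoxb9. Mir196a-2 (chr15:102973350-102973434, plus strand) lies 1456 bases beyond Hoxc10 and 3004 bases before Hoxc9, in an intron of a long non-coding transcript of Hoxc5. Mir196b (chr6:52230081-52230165, minus strand) lies 1031 bases beyond Hoxa10, in an exon of some non-coding Hoxa9 transcripts and in an intron of another. Mir615 (chr15:103014910-103015001, plus strand) lies in an intron of Hoxc5, 3028 bases beyond Hoxc6. These positions are from the GENCODE M21 annotation of mm10.

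**Figure D1:**
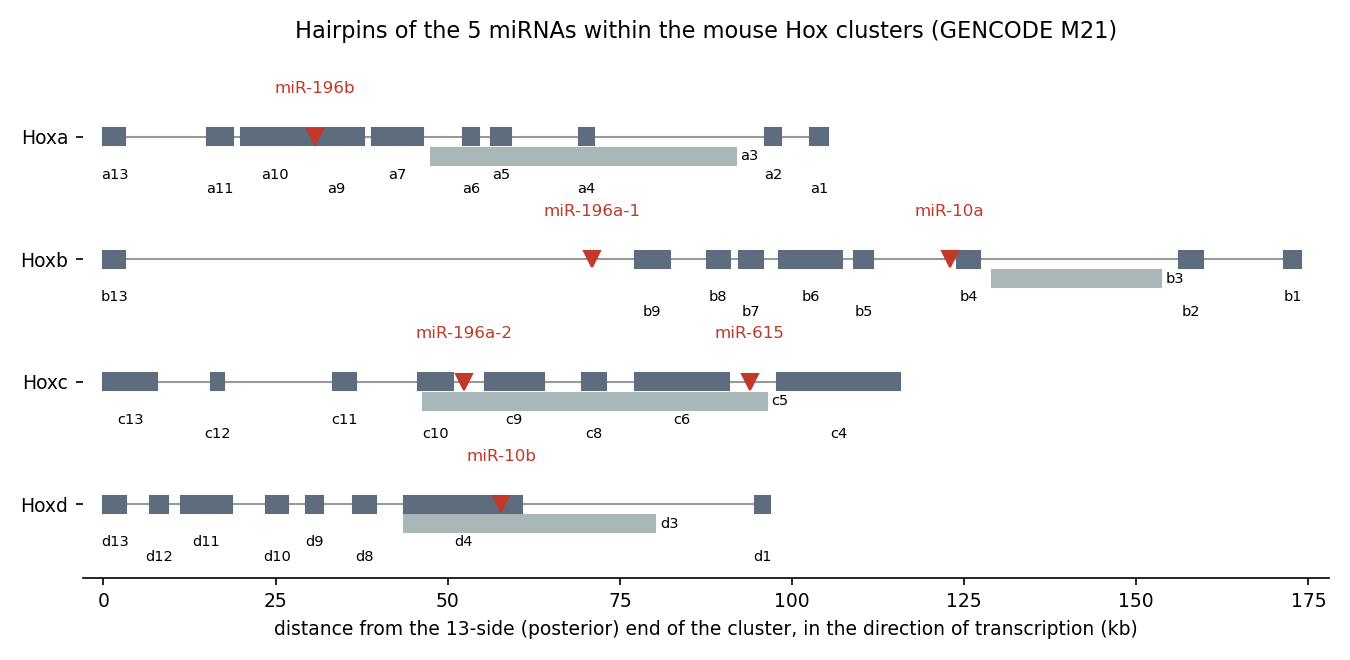
Position of the 6 hairpins (red) in the Hoxa, Hoxb, Hoxc and Hoxd clusters, in kb from the posterior end in the direction of transcription; dark bars are protein-coding Hox genes, and light bars are genes whose annotated span includes long transcripts. The miR-196 hairpins sit on the posterior side of the miR-10 hairpin in Hoxb (Mir196a-1 at 70.8 kb, Mir10a at 122.8 kb).

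The Hox clusters also hold a well-known partner of miR-196. The Hoxb8 transcript contains a stretch in its 3′ UTR, in exon 2 of 2 (chr11:96284888-96284909, plus strand, mm10), that can pair with miR-196a-5p over all 22 bases. It is shown 5′ to 3′ with the bases opposite the seed in capitals.
Hoxb8 site: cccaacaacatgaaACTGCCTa
Of its 22 pairs, 21 are Watson-Crick pairs and 1 is a G:U pair, opposite base 5 of the miRNA. The next best ungapped stretch of the transcript paired at 18 bases. Hox mRNA levels were not analysed here.

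The libraries held 516517 to 651031 mature miRNA counts in Rx-Dicer mutants and 1133553 to 1299067 in controls, so both mutant libraries were the shallower ones. The detection floor, taken as 3 counts, was 4.61 and 5.81 CPM (counts scaled to the same total in each library) in the mutant libraries and 2.31 and 2.65 CPM in the control libraries. The tissue label was checked against markers of cell types. The marker lists do not separate regions of the neural tube, so they cannot check how far rostral the tissue was. miR-9-5p, a miRNA of neural progenitors, took between 151984 and 483367 counts per library. The 6 neural rows present summed to 243476 and 262198 scaled CPM in mutants and to 344473 and 526761 in controls, where scaled CPM are CPM after edgeR's TMM scaling. This sum was almost all miR-9-5p, at 240963 and 259155 in mutants and 339853 and 524056 in controls. The 4 muscle rows present had 1 count in all libraries together, and 3 of the 4 were at 0. The 6 mesenchymal rows were clearly present, at 16189 and 15958 scaled CPM in mutants and 6606 and 15825 in controls, and control library 1 stood lowest. The 3 red-cell rows summed to 7595 and 8504 in mutants and 5737 and 6362 in controls. Endothelial miR-126a-5p ranged from 244 to 431 scaled CPM, and the 2 white blood cell rows summed to 65.7 to 121. The part of these other cells in the counts of the Hox-cluster miRNAs was not tested. In pieces of tissue, fewer cells of a type and less RNA per cell cannot be told apart.

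Hox-cluster miRNAs were detected in every library, at a low level and unequally. Together they took 0.0614% and 0.0641% of all miRNA counts in the mutants and 0.0547% and 0.0574% in the controls. In control libraries, miR-9-5p had 1445 and 1708 times as many counts as miR-10a-5p. The order in controls was miR-10b-5p at 295 ± 49.9 scaled CPM, miR-10a-5p at 271 ± 50.7, miR-196a-5p at 69.3 ± 18.3, miR-196b-5p at 12.1 ± 1.74 and miR-615-5p at 0.542 ± 0.767 (SD, n = 2 libraries). The first 2 of these did not differ beyond their spread, whereas the steps from miR-10a to miR-196a and from miR-196a to miR-196b each exceeded it. In mutants miR-10a-5p (252 ± 48.3) stood above miR-10b-5p (194 ± 47.0), with a step larger than either SD, and the lower 3 kept their places. How efficiently each sequence was ligated and amplified was not measured, so levels of different miRNAs are compared as counts.

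**Figure D2:**
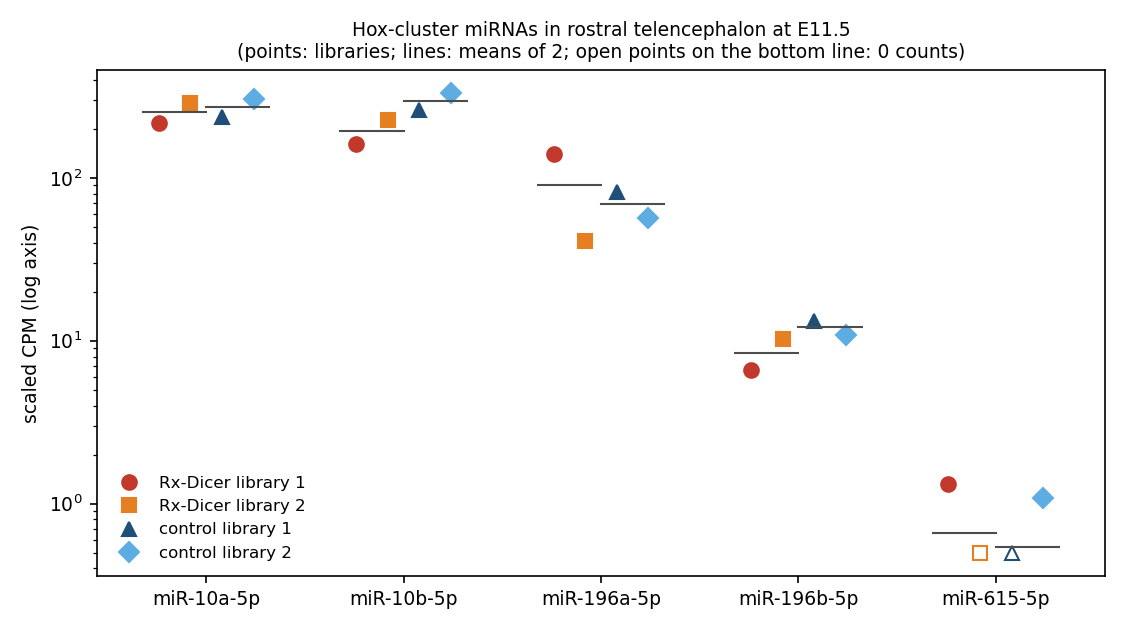
Scaled CPM (log axis) of the 5 Hox-cluster miRNAs in each library, with lines at the mean of the 2 libraries of a genotype; open points mark libraries with 0 counts. miR-10a and miR-10b lie between 160 and 331 scaled CPM in all libraries, miR-196a is spread from 40.9 to 139, and miR-615 is near 1 or at 0.

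miR-10a-5p, from the anterior part of the Hoxb cluster, was counted 166 and 168 times in the mutants and 283 times in each control library. This was 218 and 286 scaled CPM in mutants and 235 and 307 in controls. On this scale the genotypes overlapped, and the libraries of one genotype differed by more than the genotype means did. As plain CPM it was at 255 and 325 in mutants and 218 and 250 in controls, higher in both mutant libraries. It stood 113th to 127th from the top in the 4 libraries, of 461 to 534 miRNAs with a count. Its log2 fold change was −0.10 (standard error 0.29, 95% interval −0.78 to 0.57, edgeR quasi-likelihood adjusted p = 0.956). The direction was not stable: with total counts only the value was 0.31, without Rx-Dicer library 1 it was 0.081, and without control library 2 it was 0.099. A change of the size seen in let-7b-5p (−2.87), the most negative of all tested miRNAs, is outside this interval. One of the size seen in let-7e-5p (−0.62) is inside it.

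miR-10b-5p, from the Hoxd cluster, was counted 122 and 133 times in the mutants and 313 and 305 times in the controls. As scaled CPM it was at 160 and 227 in mutants and at 260 and 331 in controls. Each mutant library thus lay below each control library on this scale, but as plain CPM the genotypes overlapped, with 187 and 257 in mutants against 241 and 269 in controls. Its log2 fold change of −0.61 was the most negative among the 4 tested Hox-cluster miRNAs (standard error 0.30, 95% interval −1.31 to 0.091), and it did not pass the threshold (unadjusted p = 0.0788, adjusted p = 0.526 in edgeR's quasi-likelihood test). This corresponds to a mutant level of 0.655 times that of controls, with an interval of 0.402 to 1.06. It stood 127th to 138th from the top in mutants and 114th and 115th in controls.

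miR-196a-5p, which is made from hairpins in both Hoxb and Hoxc, was the most variable member. It was counted 106 and 24 times in Rx-Dicer libraries 1 and 2, and 99 and 52 times in the controls. Its plain CPM in Rx-Dicer library 1 was 163 (95% Wilson interval 135 to 197), and in Rx-Dicer library 2 it was 46.5 (31.2 to 69.1), so libraries of the same genotype differed beyond counting error. On the scaled scale they differed 3.40-fold, against 1.46-fold between the control libraries, and 10 of the 274 tested miRNAs differed more between the mutant libraries. On the log2(scaled CPM + 1) scale, the difference between the mutant libraries was 1.74 for miR-196a-5p and 0.29 in the median over all tested miRNAs, whereas between the control libraries these values were 0.54 and 0.41. The log2 fold change was 0.39 (standard error 0.55, 95% interval −0.90 to 1.68, adjusted p = 0.856 in edgeR's quasi-likelihood test). Without Rx-Dicer library 1 it was −0.76, and without Rx-Dicer library 2 it was 1.00, so each mutant library alone gave another direction. The files have a row for each of its hairpins, and the row not used here held 95 and 22 counts in mutants and 93 and 48 in controls. Reads of the shared mature sequence cannot be divided between these hairpins.

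Other markers also differed between the Rx-Dicer libraries. No marker in any list passed the threshold between genotypes. The 7 epithelial rows summed to 235 scaled CPM in Rx-Dicer library 1 and 808 in Rx-Dicer library 2, with 201 and 427 in controls. Among them, miR-200a-5p was counted 8 times in Rx-Dicer library 1 and 112 times in Rx-Dicer library 2, and miR-200b-5p 4 and 82 times, while 3 of the 7 rows were at 0. miR-205-5p, the most abundant row of the list, was at 220 and 477 scaled CPM in mutants and 142 and 245 in controls. The library with the most miR-196a thus had the least miR-200a and miR-200b, but the least miR-205 and the lowest epithelial sum were in control library 1. Endothelial miR-126a-5p was at 431 and 244 scaled CPM in Rx-Dicer libraries 1 and 2. The mesenchymal sum, at 16189 and 15958 scaled CPM, rests mostly on miR-199a-5p and miR-143-3p. Its smaller rows miR-143-5p and miR-145a-5p were higher in Rx-Dicer library 1, like miR-126a-5p. They were at 52.6 and 22.2, and at 386 and 261 scaled CPM, in Rx-Dicer libraries 1 and 2. miR-143-3p did not share that split (4272 and 4611). The split was small for miR-199a-5p (10431 and 10096), miR-199b-5p (747 and 703) and miR-214-5p (300 and 266). In control libraries 1 and 2, miR-196a-5p was at 82.3 and 56.4. There miR-143-5p (17.5 and 32.5), miR-145a-5p (149 and 366) and miR-126a-5p (253 and 403) went the other way. The part of epithelial, endothelial and mesenchymal cells in the miR-196a values was not tested.

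miR-196b-5p, from the Hoxa cluster, was counted 5 and 6 times in the mutants and 16 and 10 times in the controls. As scaled CPM it was at 6.57 and 10.2 in mutants and at 13.3 and 10.8 in controls. The genotypes did not overlap on this scale, although Rx-Dicer library 2 and control library 2 were nearly equal, and they overlapped as plain CPM, with 7.68 and 11.6 in mutants against 12.3 and 8.82 in controls. Its log2 fold change was −0.55 (standard error 0.52, 95% interval −1.77 to 0.67, adjusted p = 0.731 in edgeR's quasi-likelihood test). It passed the count minimum only through the control libraries, which both reached 10 counts.

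miR-615-5p, from the intron of Hoxc5, was at the limit of detection. It had 1 count in Rx-Dicer library 1, 1 in control library 2 and 0 in the other libraries. A count of 0 allows up to 5.81 CPM in Rx-Dicer library 2 and up to 2.31 CPM in control library 1. It was not tested, and no difference between genotypes was detectable at this depth. Of the 6 opposite (3p) arms of these hairpins looked for, 0 had a row in the files used here, so miR-615-3p and the others were not analysed here.

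No Hox-cluster miRNA passed the threshold between Rx-Dicer mutants and controls. Of the 4 tested, 0 were lower and 0 were higher at an adjusted p under 0.05 in edgeR's quasi-likelihood test. Over all 274 tested miRNAs, 2.55% were lower and 0.0% were higher. At an unadjusted p under 0.05 in that test, 0 of the 4 passed, against 26 of all 274. DESeq2's Wald test called 0 of the 4, against 11 of all 274, and gave no adjusted p for the miR-196 pair. Of the same 4, 2 had scaled CPM lower in both mutant libraries than in both control libraries, namely miR-10b-5p and miR-196b-5p, and 0 had higher values in both. Since miR-196b-5p was tested only because both control libraries reached 10 counts, its place in this count partly restates the filter. Over all tested miRNAs these shares were 24.5% and 17.9%. As plain CPM, 1 of the 4 was higher in both mutant libraries, namely miR-10a-5p, and 0 were lower in both, where 48.5% of all tested miRNAs were higher and 8.39% lower. The intervals are wide, so that a decrease to 0.402 of the control level is within the interval of miR-10b-5p and one to 0.292 within that of miR-196b-5p.

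**Figure D3:**
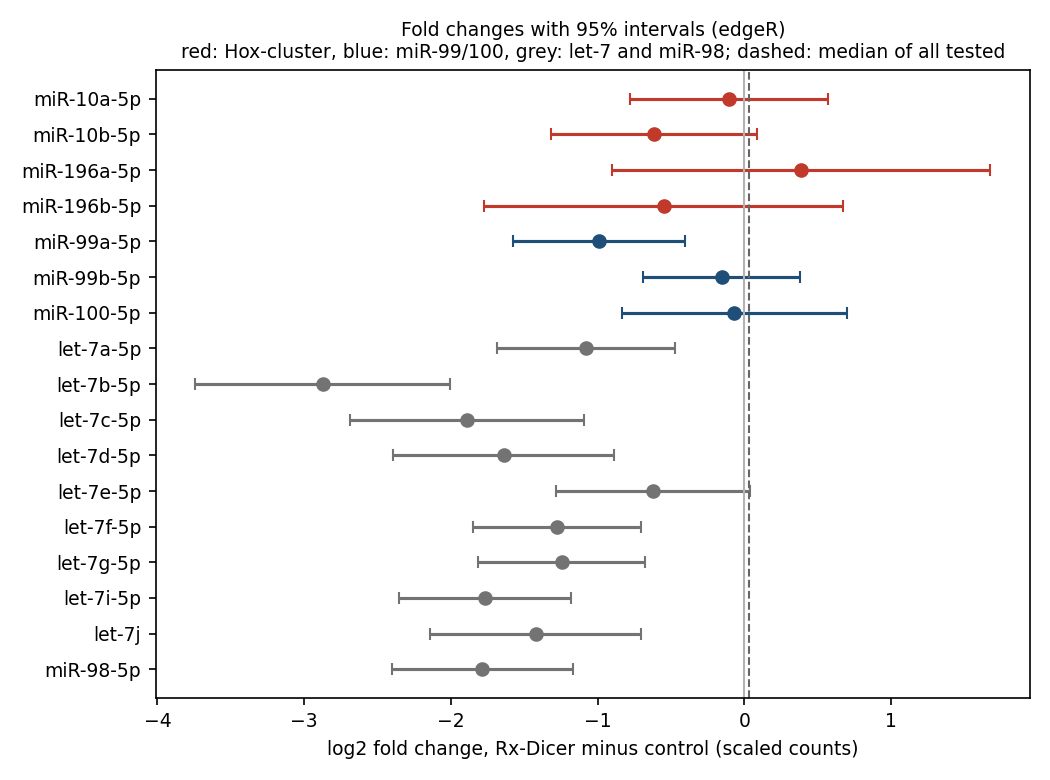
Log2 fold change (Rx-Dicer minus control) with 95% intervals for the 4 tested Hox-cluster miRNAs (red), miR-99 and miR-100 (blue), and let-7 and miR-98 (grey), with the median of all 274 tested miRNAs dashed. The red intervals all include 0, and the 7 called miRNAs are all among the grey ones.

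The relatives by sequence were read from the same fit. Of miR-99a, miR-99b and miR-100, 0 of 3 passed the threshold in either direction. Their log2 fold changes were −0.99 for miR-99a-5p (standard error 0.25), −0.15 for miR-99b-5p (standard error 0.23) and −0.068 for miR-100-5p (standard error 0.33), and miR-100-5p had 69.7 to 136 times the counts of miR-10a-5p in the same library. Among let-7 and miR-98, known for their rise as neural progenitors mature, 7 of 10 tested were lower and 0 higher, with a median log2 fold change of −1.53. These 7 were all the miRNAs called, and the number called over all tested miRNAs was 0 without either control library and 1 without Rx-Dicer library 1. Whether miR-196 and let-7 differ in their response was not tested.

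Shares of one member in the joint counts of members, within a library, do not depend on the scaling between libraries. The summed share of all members in all counts is a plain CPM in another form, so it is not free of that scaling. In total 4 shares were compared, this sum included. Of the joint miR-10 counts, miR-10b-5p took 42.4% (95% Wilson interval 36.8 to 48.1) in Rx-Dicer library 1 and 44.2% (38.7 to 49.8) in Rx-Dicer library 2. Its share was 52.5% (48.5 to 56.5) in control library 1 and 51.9% (47.8 to 55.9) in control library 2. The means were 43.3% ± 1.29 for mutants and 52.2% ± 0.457 for controls (SD, n = 2 libraries), a difference of −8.92 percentage points. The gap exceeded the spread between libraries (two-sided exact permutation p = 0.333, which is the lowest value that 2 libraries against 2 can reach). miR-10a was ahead of miR-10b in mutants. In controls miR-10b was slightly ahead, but both intervals there include equal shares. The interval of Rx-Dicer library 2 overlapped both control intervals, and that of Rx-Dicer library 1 overlapped that of control library 2. Ratios that do not overlap between the genotypes were frequent in these libraries, at 41.0% of the 37401 pairs of tested miRNAs, so the lack of overlap is not particular to the miR-10 pair.

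The balance between the miR-196 and the miR-10 genes, which lie at different levels of the clusters, differed more within the mutant pair of libraries than between genotypes. miR-196a and miR-196b made up 27.8% (23.7 to 32.4) of their joint counts with miR-10 in Rx-Dicer library 1 and 9.06% (6.42 to 12.6) in Rx-Dicer library 2. In control libraries 1 and 2 they made up 16.2% (13.7 to 19.1) and 9.54% (7.51 to 12.0). The mean difference was 5.59 percentage points (exact permutation test, two-sided, p = 1.00), and it was −3.79 without Rx-Dicer library 1. Within the miR-196 pair, miR-196b-5p made up 4.50% and 20.0% in mutants and 13.9% and 16.1% in controls, a difference of −2.77 percentage points (exact permutation test, two-sided, p = 1.00) that was 4.98 without Rx-Dicer library 1. Over the 4 shares compared, the Benjamini-Hochberg adjusted exact permutation p was 0.667 for the miR-10b share and the summed share and 1.00 for the others.

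**Figure D4:**
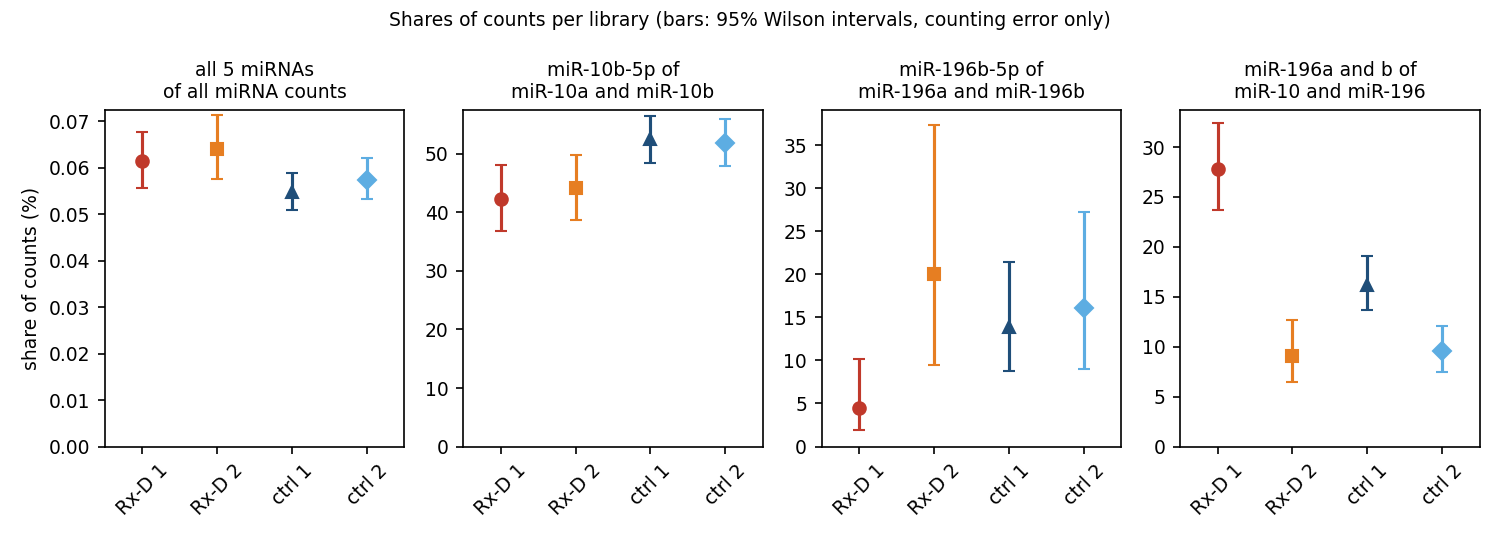
Shares of counts (%) in each library with 95% Wilson intervals, which cover counting error only: all 5 miRNAs among all counts, miR-10b among miR-10, miR-196b among miR-196, and miR-196 among miR-10 and miR-196. The miR-10b share is lower in both mutant libraries (42.4% and 44.2%) than in both control libraries (52.5% and 51.9%), and the miR-196 share is highest in Rx-Dicer library 1 (27.8%).

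For the 5 miRNAs summed, the direction depended on the scale. As a share of all counts the sum was higher in both mutant libraries, by 0.00668 percentage points (exact permutation test, two-sided, p = 0.333, the lowest possible value). On that scale 48.5% of all tested miRNAs were higher in both mutant libraries. With miR-9-5p left out of the total the difference of the summed share was −0.00184 percentage points. As scaled CPM the sum stood at 526 and 564 in mutants (mean 545 ± 27.3) and at 591 and 706 in controls (mean 648 ± 81.3), lower in both mutant libraries. The same held for 24.5% of all tested miRNAs on the scaled CPM scale.

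**Figure D5:**
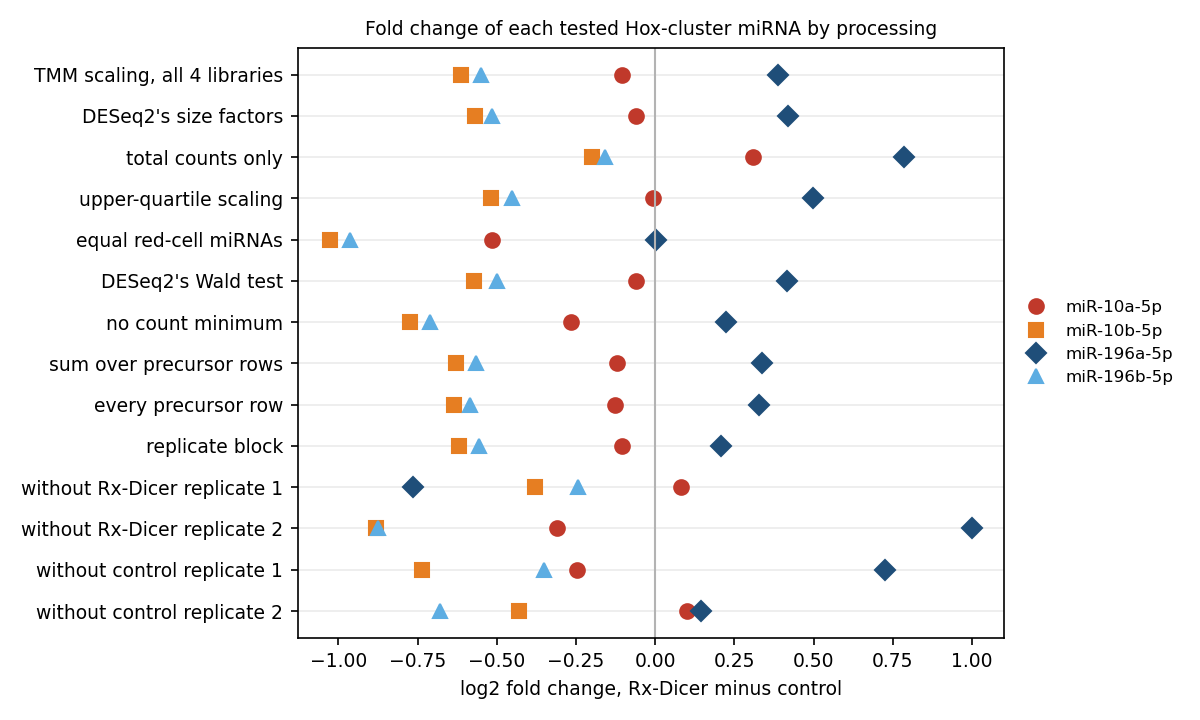
Log2 fold change (Rx-Dicer minus control) of the 4 tested Hox-cluster miRNAs under each processing, with each library left out in turn in the last 4 lines. miR-10b and miR-196b stay below 0 throughout (−1.03 to −0.16), while miR-196a moves from −0.76 without Rx-Dicer library 1 to 1.00 without Rx-Dicer library 2.

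The tested miRNAs whose levels over the 4 libraries most resembled each member were identified by the root mean square difference of centred log2(scaled CPM + 1) values. For miR-10a-5p they were miR-1306-5p (difference 0.074) and miR-708-5p (0.082). For miR-10b-5p they were miR-488-5p (0.11) and miR-149-5p (0.14). For miR-196a-5p they were miR-449a-5p (0.18), at 488 and 118 scaled CPM in mutants and 323 and 217 in controls, and miR-132-5p (0.26). For miR-196b-5p they were miR-3963 (0.11) and miR-3064-5p (0.11). No member was the closest match of another, and 4 libraries give many near matches by their number alone.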

How the data were processed

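Small RNA libraries were sequenced with 75-base single-end reads, and per the paper the authors counted them with miRDeep2 against mm10 and miRBase v22. The version and mismatch settings are not given in the sources used here. The deposited values are raw counts, not normalized, with a row for each combination of mature miRNA and hairpin. The labels' processing notes also name FastQC 2.6.14.

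From the 1211 rows per library, the row with the highest total was kept for each mature miRNA. miRNAs with at least 10 counts in 2 libraries were tested with edgeR 4.0.16 (quasi-likelihood, TMM scaling with factors from 0.814 to 1.17, genotype only, R 4.3.3), with Benjamini-Hochberg adjustment over all 274. The standard error is the absolute log2 fold change divided by the square root of F. DESeq2 1.42.0, other scalings, filters, row choices, the replicate number as a factor and each library left out were alternatives. Shares have Wilson intervals and exact permutation tests (scipy 1.17.1), and PCR copies were not marked, so intervals cover counting error only. Scripts were tested on simulated data.

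Libraries were grouped by the genotype in their titles. The members and lists were chosen with earlier results of these data known. Named miRNAs were the 5 members, their opposite arms, the relatives miR-99a, miR-99b, miR-100, let-7 and miR-98, marker lists and the 2 nearest patterns of each tested member. Positions and the Hoxb8 sequence came from GENCODE M21 (GRCm38, the build of mm10).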

Additional observations from a re-analysis of the deposited data

How the results depend on the processing

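No Hox-cluster miRNA passed an adjusted p of 0.05 under any of the 13 alternatives to edgeR's quasi-likelihood test with TMM scaling, while the number of all miRNAs called lower ranged from 0 to 14 against 7 (11 with DESeq2's Wald test or equal red-cell miRNAs, 14 with no count minimum or every precursor row, 4 with DESeq2's size factors, 3 with upper-quartile scaling, and 0 with total counts only, the replicate block or either control library left out). At an unadjusted p under 0.05, miR-10b-5p passed as lower with equal red-cell miRNAs, with no count minimum and with the replicate block. In these fits 61 of 274, 52 of 634 and 24 of 274 of all tested miRNAs passed in either direction. No member passed in the other alternatives that kept all libraries. Without Rx-Dicer library 2 the log2 fold change of miR-196a-5p was 1.00. Of 52 fold changes of the 4 tested members, 48 kept their direction. Adjusted p ranged from 0.331 to 0.998 for miR-10a-5p, 0.107 to 0.986 for miR-10b-5p, 0.432 to 1.00 for miR-196a-5p and 0.338 to 0.986 for miR-196b-5p over edgeR and DESeq2 fits. DESeq2's Wald test gave no adjusted p for the miR-196 pair. miR-10a-5p was at 0.31 with total counts only, which moved the median of all tested miRNAs to 0.44 from 0.035, and equal red-cell miRNAs moved it to −0.37. With each library left out, in which the lone library of a genotype is assumed to vary like the others, miR-10a-5p ranged from −0.31 to 0.099, miR-10b-5p from −0.88 to −0.38, miR-196a-5p from −0.76 to 1.00 and miR-196b-5p from −0.87 to −0.25. The summed share differed by −0.00184 percentage points once miR-9-5p was taken out of the denominator and by 0.00909 with precursor rows summed. Without single libraries, the miR-196b share of miR-196 ranged from −10.5 to 4.98 percentage points and the miR-196 share of miR-10 and miR-196 from −3.79 to 15.0. The cause was not tested. In the fit with a replicate block, log2 fold changes were −0.10, −0.62, 0.21 and −0.55 for miR-10a, miR-10b, miR-196a and miR-196b, and 0 of all tested miRNAs were called. The deviations of same-numbered libraries correlated at 0.085 over 274 miRNAs. Whether such libraries share a litter or a preparation is not given in the sources used here, and this correlation cannot decide it. Depth limits miR-196b and miR-615, which had at most 16 and 1 counts per library.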

Other observations

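Because miR-196a-5p stood high in Rx-Dicer library 1, the tested miRNAs that exceeded their next highest library there by the most were listed after the values were seen. miR-196a-5p was the fourth of 274, at 139 scaled CPM against 82.3 in the next library. The other four at the top were miR-1251-5p (32.9 against 17.1 scaled CPM), miR-675-5p, which comes from the imprinted H19 transcript (19.7 against 10.2), miR-216b-5p (137 against 78.1) and miR-135a-5p (1593 against 978). miR-216b-5p and miR-135a-5p were also lowest in Rx-Dicer library 2, with 34.1 and 466 scaled CPM, as was miR-196a-5p with 40.9. miR-1251-5p and miR-675-5p had 25 counts or fewer in each library.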
